A study of Homo sapiens with 6 samples.

Results

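The genes described here are 10 that encode proteoglycans and matricellular proteins of the tumor stroma: DCN, LUM, BGN, FN1, SPARC, POSTN, THBS1, THBS2, TNC and FBN1. They were chosen by name, with earlier results of these data known. Every spot of the array that carried one of these gene names and was not a control spot was taken, and each of the resulting 13 probes was kept apart, out of 50599 probes on the array. A single spot stood for each of the 13 probes. DCN, THBS1 and THBS2 had 2 probes each and the other 7 genes had 1.

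RNA came from subcutaneous BxPC-3 tumors (a cell line from a human adenocarcinoma of the pancreas) grown in female BALB/c (nu/nu) mice that were 8 to 10 weeks old at the start. The cells had been injected together with Matrigel, an extract of mouse basement membrane. The 3 control tumors came from mice given the vehicle alone. The 3 DFX tumors came from mice given deferasirox (DFX), an oral iron chelator, at 200 mg/kg by gavage every second day, 3 times per week, for 21 days. All mice carried the same cell line, and nude mice lack T cells but keep fibroblasts, vessels and innate immune cells of their own. The comparison asked how gene expression in the tumor differed after DFX. Each tumor was labeled with Cy3 and hybridized to 1 human array of 60-mer probes.

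Small leucine-rich proteoglycans such as decorin, lumican and biglycan bind collagen fibrils and control how they assemble, and several of them also bind growth factors of the TGF-β family. Matricellular proteins (thrombospondins, tenascin-C, SPARC and periostin) are secreted into the matrix and act mainly as signals between matrix and cells, while fibronectin and fibrillin-1 build fibers of their own. In pancreatic cancer these molecules are made largely by fibroblasts of a dense stroma. In a xenograft those fibroblasts are mouse cells, and the probes are human. Signal from transcripts of the BxPC-3 cells and signal from mouse transcripts that bind a human probe cannot be told apart here, nor can fewer cells of a type be told apart from less RNA per cell.

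The probes differ in which piece of the transcript they read, and 4 sequences are printed because the results below turn on them. Positions on hg19 were taken from the array annotation, and each sequence is written 5′ to 3′ in the sense of the transcript. The DCN 3′ probe lies at chr12:91539834-91539893 on the minus strand and runs through the end of the coding sequence, where the capitals mark the TAA stop codon. The DCN 5′ probe lies 32366 bases away at chr12:91572200-91572259, minus strand, in coding sequence near the start of the protein. These are shown because they gave different results for the same gene.
DCN 3′ probe: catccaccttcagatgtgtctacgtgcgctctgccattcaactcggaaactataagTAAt
DCN 5′ probe: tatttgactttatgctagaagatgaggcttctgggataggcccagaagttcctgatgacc
Both DCN probes hold 45% G and C. The THBS2 5′ probe at chr6:169620294-169620353, minus strand, is in coding sequence 4393 bases from the THBS2 3′ probe, and is shown because it was the THBS2 probe measured in every tumor. For THBS2 the names 5′ and 3′ give only the order of the 2 probes, and neither is said to lie near the 5′ end of the transcript. The FN1 probe is shown because it was the only FN1 probe. Its 60 bases span 679 bases of chromosome 2, at chr2:216288217-216288895 on the minus strand, so it crosses an intron.
THBS2 5′ probe: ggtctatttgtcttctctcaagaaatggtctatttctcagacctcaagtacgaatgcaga
FN1 probe: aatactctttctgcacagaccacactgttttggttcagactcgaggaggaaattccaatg

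All levels below are log2 of the processed signal, which is the spot's intensity after background subtraction, quantile-normalized over the 6 arrays. A difference is DFX minus control on that scale, with its standard error (SE) and 95% confidence interval from limma, a linear model that shares the spread between probes. A probe was tested when its p-value against background was under 0.05 on all 6 arrays, and it is called here when its unadjusted limma p was under 0.05, the threshold the study used. The p-values printed are adjusted for all tested probes. An exact two-sided permutation test of 3 tumors against 3 cannot give less than 0.1. After Benjamini-Hochberg adjustment over the 31807 tested probes limma called 0 probes of the array at 0.05, against 2675 unadjusted and 4927 by the Kruskal-Wallis H test, also unadjusted, and the lowest adjusted limma p was 0.0675. By the scanner's flag, 50.3% (DFX replicate 2) to 56.5% of all probes stood well above background, and arrays correlated at 0.980 to 0.990. The control tumors lay in row 1 and the DFX tumors in row 2 of the slide that held all 6, so slide row and treatment cannot be told apart. All p-values measure the spread between these 6 tumors.

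Of the 13 probes, 12 were tested, and these represented 9 of the 10 genes. Limma called 4 of the 12 probes at an unadjusted p under 0.05 (33.3%), where 8.41% of all tested probes were called. As the genes were chosen with earlier results known, these shares are a description and carry no test. DCN, SPARC and THBS2 were lower in the DFX tumors by 1 probe each, and LUM was higher. Lower calls made up 4.95% and higher calls 3.46% of all tested probes. The same 4 probes were the ones without overlap between the groups, which was found for 15.5% of all tested probes (9.15% lower and 6.34% higher). No probe of the 10 genes passed after adjustment, with adjusted p from 0.514 to 0.993 in limma. By gene, 4 of 9 had a called probe, 3 lower and 1 higher, against 10.6% of all genes with a tested probe, 6.3% lower and 4.36% higher. The median difference of the 12 probes was -0.22, beside -0.02 over all tested probes. Below 0 were 10 of the 12, beside 17309 of the 31807 tested probes of the array. Some of the 10 lay close to 0, such as FN1 at -0.01 and the THBS1 probes at -0.07 and -0.04. Only 5 of the 13 probes were well above background in every tumor, and 3 were so in none. Among those 5 were the DCN 3′ and the LUM probe, which were called, beside 7.31% called among all probes of that kind.

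**Figure D1:**
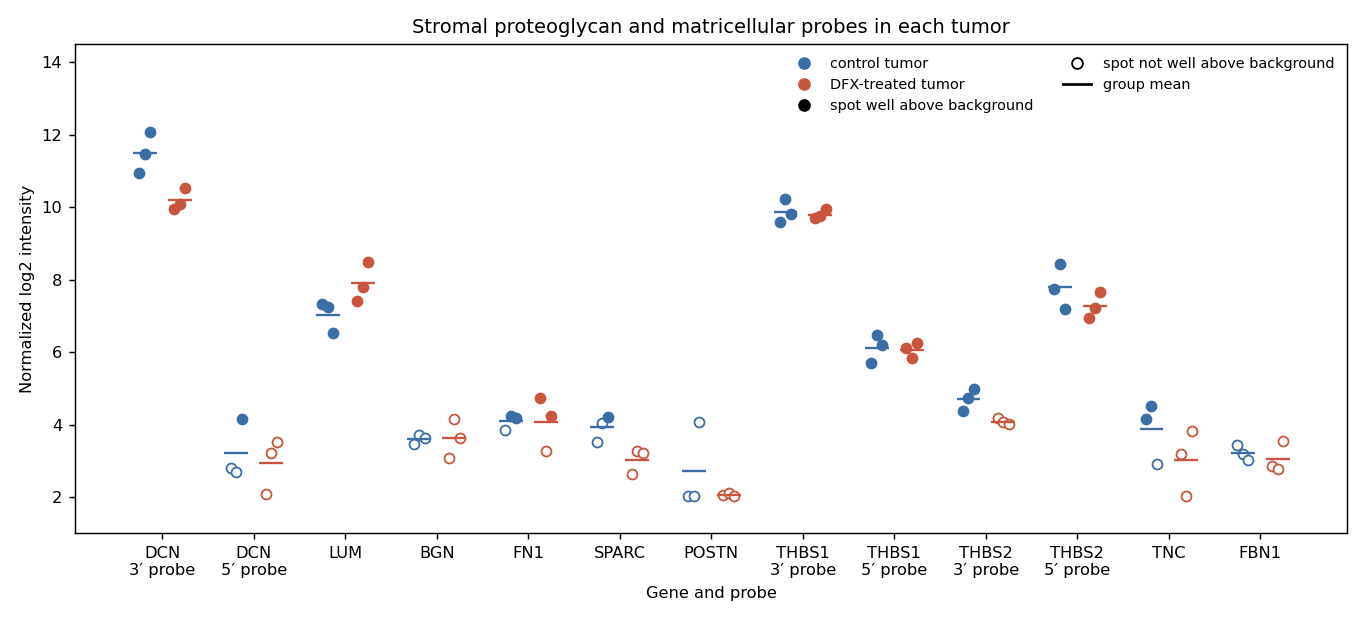
Normalized log2 intensity (vertical axis) of each of the 13 probes of the 10 genes (horizontal axis) in the 3 control tumors (blue) and 3 DFX tumors (red), with group means as bars. Filled points were well above background on that array and open points were not; the DCN 3′ points of the DFX tumors all lie below those of the control tumors, and the LUM points all lie above.

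DCN encodes decorin, a proteoglycan that coats collagen fibrils and binds TGF-β. The DCN 3′ probe gave 10.93, 11.45 and 12.07 in control replicates 1 to 3, and 9.94, 10.09 and 10.53 in DFX replicates 1 to 3. Every DFX tumor was below every control tumor, and the control tumors were the more spread of the groups. The means were 11.49 ± 0.57 (SD, n = 3) in control and 10.19 ± 0.31 (SD, n = 3) in DFX tumors. The level in DFX tumors was 2.46-fold lower, a difference of -1.30 (SE 0.32, 95% interval -2.08 to -0.52). It passed the unadjusted threshold, with an adjusted p of 0.514 in limma. Only 0.305% of all tested probes had a difference as low as this one, and 1.18% had a p as small.

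The order did not depend on quantile normalization, since the processed signals before it were 1940, 2582 and 5408 in the controls and 927, 1021 and 1518 in the DFX tumors. The DCN 3′ probe passed the same threshold in all 16 alternative ways of processing that gave it a p, with differences from -1.58 to -1.01.

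The DCN 5′ probe did not repeat this. It gave 2.81, 2.70 and 4.14 in the controls and 2.08, 3.21 and 3.51 in the DFX tumors. The groups overlapped, and only control replicate 3 was well above background, so no fold is given. Its interval, -1.56 to 1.0, holds both 0 and the difference of the 3′ probe, and it was not called (adjusted p = 0.895 in limma). The difference turned to 0.18 without control replicate 3 and to 0.15 without DFX replicate 1.

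LUM encodes lumican, which spaces collagen fibrils and lies next to DCN on chromosome 12, with no protein-coding gene between them in RefSeq (GRCh38.p14). Its probe, at chr12:91497646-91497705 on the minus strand, gave 7.33, 7.24 and 6.52 in the controls and 7.42, 7.79 and 8.48 in the DFX tumors. Every DFX tumor was above every control tumor, by a narrow margin between DFX replicate 1 and control replicate 1. The means were 7.03 ± 0.44 (SD, n = 3) in control and 7.90 ± 0.54 (SD, n = 3) in DFX tumors. The level in DFX tumors was 1.82-fold higher, a difference of 0.87 (SE 0.34, 95% interval 0.03 to 1.70). It passed the unadjusted threshold, with an adjusted p of 0.584 in limma.

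The LUM call was the least stable of the 4, and it was kept in 9 of 16 alternatives. At an unchanged difference of 0.87 it was lost when dim probes were kept in the fit and when the replicate number was used as a block, and with array quality weights the difference was 0.56 and was not called. Leaving out control replicate 2 also ended the call (0.97), as did leaving out control replicate 3 (0.61), and the same held for DFX replicates 2 (0.92) and 3 (0.57). The difference stayed above 0 in all 16.

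DCN and LUM differed between the groups in opposite directions, so that their log2 levels lay closer together in the DFX tumors. The LUM minus DCN 3′ log2 difference was -3.60, -4.21 and -5.55 in the controls and -2.52, -2.30 and -2.04 in the DFX tumors, a shift of 2.17 between the group means. This pair was picked after the values were seen and carries no test. A scaling factor common to an array cancels in such a difference, but a part of the normalization that depends on level does not. The shift joins the DCN 3′ and LUM differences given above and adds no evidence to them. The largest LUM level among the control tumors was in the tumor with the smallest DCN level, control replicate 1, but among the DFX tumors replicate 3 had the largest level of both.

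BGN encodes biglycan, a close relative of decorin, and its probe was well above background in no tumor. It gave 3.47, 3.72 and 3.64 in control and 3.08, 4.16 and 3.64 in DFX tumors. The control tumors lay inside the range of the DFX tumors, and the difference was 0.02 (95% interval -0.66 to 0.69; adjusted p = 0.990 in limma). Its sign changed among the alternatives.

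The thrombospondins are secreted glycoproteins that bind matrix and cell-surface receptors and inhibit the growth of blood vessels, and thrombospondin-1 also activates latent TGF-β. The THBS1 3′ probe, at chr15:39888831-39888890 on the plus strand, gave 9.58, 10.23 and 9.80 in the controls and 9.70, 9.75 and 9.94 in the DFX tumors. The 3 DFX tumors lay inside the range of the control tumors. The difference was -0.07 (SE 0.19), and its interval of -0.54 to 0.39 excludes a change as large as that of the DCN 3′ probe in either direction. The probe was not called (adjusted p = 0.927 in limma).

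The THBS1 5′ probe lies 14285 bases away at chr15:39874546-39874605, in coding sequence, and was also well above background in every tumor. It gave 5.69, 6.46 and 6.19 in control and 6.11, 5.84 and 6.26 in DFX tumors, again with the DFX tumors inside the control range. The difference was -0.04 (95% interval -0.60 to 0.51; adjusted p = 0.969 in limma). The 2 THBS1 probes differed from each other by 0.03 in their change. Both changed sign when control replicate 2 was left out, to 0.10 for the 3′ and 0.13 for the 5′ probe, and the 5′ probe also changed to 0.07 without DFX replicate 2.

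THBS2 was read by a dim and a brighter probe that both had lower means in DFX tumors. The THBS2 3′ probe, at chr6:169615901-169615960 on the minus strand, gave 4.38, 4.73 and 4.97 in the controls and 4.17, 4.07 and 4.01 in the DFX tumors. All 3 control tumors were well above background, no DFX tumor was, and the groups did not overlap. The measured difference was -0.61 (SE 0.17; adjusted p = 0.514 in limma), which passed the unadjusted threshold. As the level in the DFX tumors is only bounded, their mean by this probe was at least 1.29-fold below the control mean. For this bound, each DFX array was given the dimmest signal that counted as well above background there. The signal of the probe was used instead if it was larger. The bound leaves out the spread between tumors, and the interval of the measured difference was -1.03 to -0.19. The call was lost when normexp, a model of the background, replaced the scanner's correction (-0.12) and when the raw mean signal was used (-0.13). Normexp was run with 50 added to every signal, and the raw mean signal still holds the background. Both shrink the log2 differences of dim probes, so they cannot decide whether this call is stable.

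The THBS2 5′ probe, printed above, was well above background in every tumor and was not called. It gave 7.73, 8.44 and 7.19 in control and 6.93, 7.21 and 7.65 in DFX tumors, and the groups overlapped through control replicate 3 and DFX replicate 3. The difference was -0.52 (SE 0.35, 95% interval -1.38 to 0.34; adjusted p = 0.713 in limma). It passed the unadjusted threshold without control replicate 3, at -0.82, and with array quality weights, at -0.86. The 2 THBS2 probes differed by 0.09 in their change.

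SPARC encodes osteonectin, a collagen-binding protein that modulates the contact between cells and matrix. Its probe, at chr5:151041040-151041099 on the minus strand, gave 3.52, 4.05 and 4.20 in the controls and 2.62, 3.26 and 3.21 in the DFX tumors. Every DFX tumor was below every control tumor, but only control replicate 3 was well above background, so no fold is given. The measured difference was -0.89 (SE 0.25, 95% interval -1.51 to -0.27). It passed the unadjusted threshold, with an adjusted p of 0.514 in limma. It was no longer called with normexp (-0.14) or with the raw mean signal (-0.09), which shrink the differences of dim probes as described for THBS2. Repeat spots of 1 probe on 1 array, which the array holds for 902 other probes with 10 spots each, had a median SD of 0.52 at log2 levels of 3 to 4, where 3 of the 6 SPARC values lay.

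The same repeat spots had a median SD of 0.30 below a level of 3, 0.10 between 6 and 8, where the LUM and THBS2 5′ probes mostly lay, and 0.05 between 10 and 12, where the DCN 3′ probe mostly lay. The spread between tumors of the DCN 3′ and LUM probes was therefore several times that between spots.

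**Figure D2:**
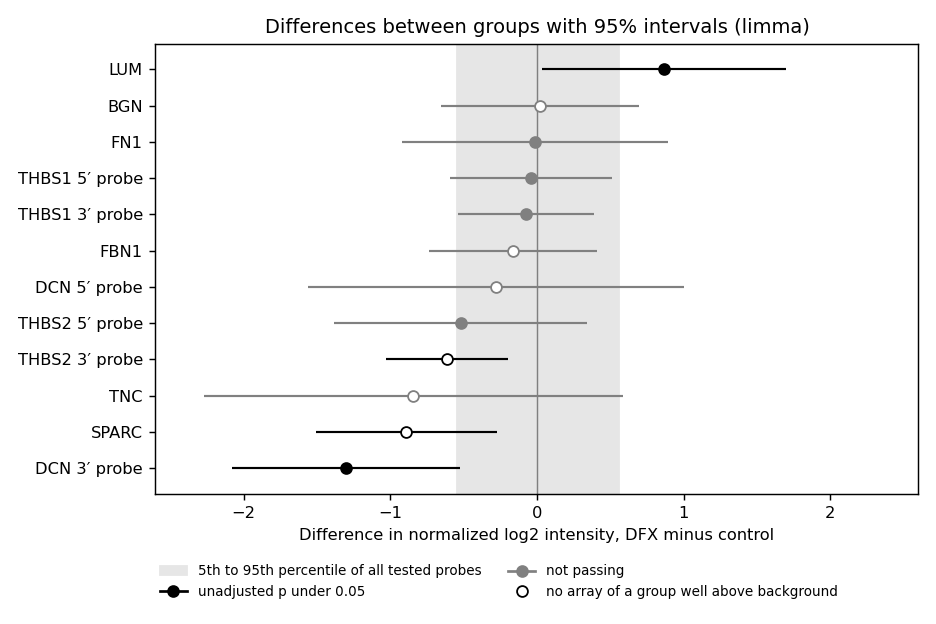
Difference in normalized log2 intensity between DFX and control tumors (horizontal axis) for the 12 tested probes, with 95% intervals from limma; black marks an unadjusted p under 0.05, and open points mark probes that were well above background on no array of at least one group. The grey band holds the 5th to 95th percentile of all tested probes, -0.54 to 0.56; DCN 3′, SPARC, THBS2 3′ and LUM lie outside it with intervals that leave out 0.

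TNC encodes tenascin-C, a large matricellular protein that marks activated stroma, and its probe gave 4.15, 4.52 and 2.92 in the controls and 3.20, 2.04 and 3.82 in the DFX tumors. Control replicates 1 and 2 were the only tumors well above background. Control replicate 3 lay below 2 of the DFX tumors. The difference was -0.84 (SE 0.59), with an interval of -2.27 to 0.59 that was the widest of the 12 and an adjusted p of 0.719 in limma.

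POSTN encodes periostin, a product of activated fibroblasts, and its probe was the one that failed the detection filter and was not tested. It gave 2.02, 2.04 and 4.08 in the controls and 2.06, 2.11 and 2.02 in the DFX tumors. Control replicate 3 stood apart from the other 5, but no tumor was well above background.

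FN1 encodes fibronectin, the fibril-forming adhesion protein of the matrix. Its probe gave 3.86, 4.24 and 4.18 in control and 4.72, 3.27 and 4.24 in DFX tumors, with 2 tumors of each group well above background. The control tumors lay inside the DFX range. The difference was -0.01 (95% interval -0.92 to 0.89; adjusted p = 0.993 in limma), and it moved between -0.34 and 0.39 as single tumors were left out. The array annotation names transcript variant 7 for this probe. Whether it also reads other fibronectin transcripts was not checked, and none was measured separately.

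FBN1 encodes fibrillin-1, the core of microfibrils, and was well above background in no tumor. It gave 3.44, 3.19 and 3.03 in control and 2.86, 2.78 and 3.54 in DFX tumors, which overlapped, with a difference of -0.16 (95% interval -0.74 to 0.41; adjusted p = 0.861 in limma).

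The 12 probes did not rank the tumors alike. Control replicates 2 and 3 were the highest of the 6 tumors for 4 probes each, and control replicate 1 for none. DFX replicate 1 was the lowest for 5 probes and DFX replicate 2 for 3. Set against each probe's mean over the 3 control tumors, the median probe was at -0.26, 0.14 and 0.05 in control replicates 1 to 3. In DFX replicates 1 to 3 it was at -0.53, -0.51 and 0.05. DFX replicate 3 thus lay among the control tumors, and without it the median difference of the 12 probes was -0.48. The number of the probes well above background was 7, 8 and 9 in the control and 6, 5 and 6 in the DFX tumors.

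**Figure D3:**
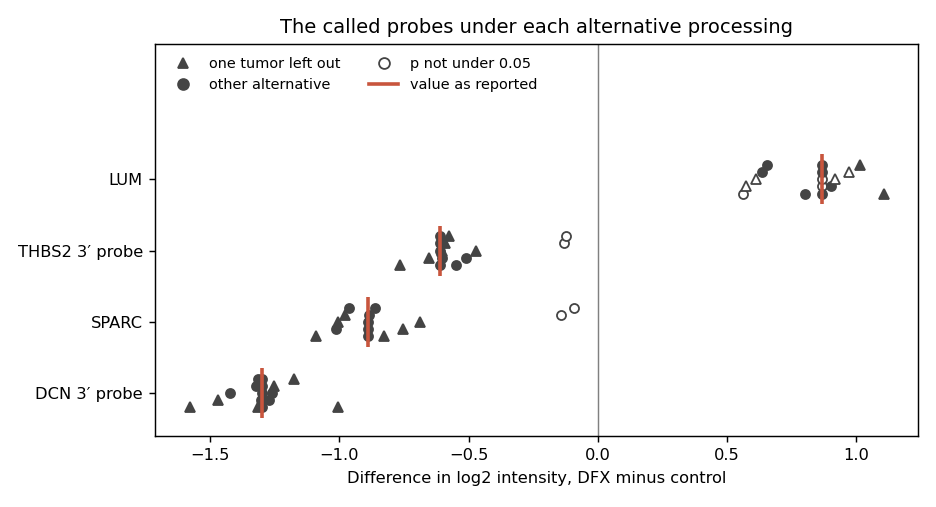
Difference in log2 intensity between DFX and control tumors (horizontal axis) of the 4 called probes under every alternative processing, with triangles where 1 tumor was left out and circles for the others; open marks have an unadjusted p that is not under 0.05, and red bars are the values as reported. All marks of the DCN 3′ probe are filled, from -1.58 to -1.01, while LUM has 7 open marks and SPARC and THBS2 3′ have 2 each near 0. Those near 0 are normexp and the raw mean signal, which shrink the differences of dim probes.

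Other genes of the same families, also listed with earlier results of these data known, were read the same way. Of 64 related matrix genes with 95 probes, 50 had a tested probe, and 13 of these (26.0%) were called at an unadjusted p under 0.05 in limma, beside 10.6% of all genes. Lower levels in DFX tumors were called for 10 genes and higher levels for 3. The median difference over the 69 tested probes was -0.14, and none passed after adjustment. The count of 13 genes fell to 8 when control replicate 3 or DFX replicate 1 was left out and when only probes well above background on all arrays were kept.

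Among 9 other small leucine-rich proteoglycans only 3 genes were tested, and 6 were well above background in no tumor. PODN, which encodes podocan, was 7.43, 5.86 and 5.27 in control and 4.11, 4.62 and 3.91 in DFX tumors. The measured difference was -1.97 (SE 0.56, interval -3.34 to -0.60; adjusted p = 0.514 in limma), and no DFX tumor was well above background. With dim signals bounded as for the THBS2 3′ probe, the DFX mean was at least 3.63-fold below the control mean. That bound leaves out the spread between tumors, so the interval also holds smaller changes. FMOD, which encodes the collagen-binding fibromodulin, was 3.35, 2.86 and 3.82 in control and 4.66, 4.34 and 4.06 in DFX tumors. The measured difference was 1.01 (SE 0.28; adjusted p = 0.514 in limma), but as only 1 DFX tumor and no control tumor was well above background, no fold is given. The called probes of small leucine-rich proteoglycans lay in both directions, DCN 3′ and PODN lower and LUM and FMOD higher. The probes of BGN, the DCN 5′ probe and the tested probe of ASPN, another gene of the family, were not called. Over all genes, 6.3% had a lower call and 4.36% a higher call.

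Of the other proteoglycans, 2 of 14 tested genes (14.3%) were called, both lower, and of the other matricellular genes 3 of 18 (16.7%), shares near the 10.6% of all genes. SPOCK3, which encodes a testican of the SPARC family, was lower by -0.65 and -0.62 on 2 probes that were well above background in every tumor (adjusted p = 0.555 and adjusted p = 0.554 in limma). The 2 probes of SPOCK2, another testican, gave different results. The dimmer one was called at a measured difference of -0.79 (SE 0.28, interval -1.49 to -0.10; adjusted p = 0.570 in limma). All control tumors and no DFX tumor were well above background. Its DFX mean, bounded in the same way, was at least 1.66-fold below the control mean, leaving out the spread between tumors. The brighter one was well above background in every tumor, overlapped between the groups and was not called, at -0.34 (SE 0.19; adjusted p = 0.663 in limma). WISP2, a member of the CCN family, was 3.79, 3.76 and 3.18 in control and 4.20, 4.57 and 6.02 in DFX tumors. It was called higher (adjusted p = 0.570 in limma), but only DFX replicate 3 was well above background, so no fold is given.

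Of 15 tested microfibril, fibulin and related genes, 6 were called, 5 of them lower. ECM1, which encodes extracellular matrix protein 1, was 12.39, 12.35 and 12.56 in control and 11.40, 11.86 and 11.94 in DFX tumors, a difference of -0.70 (SE 0.17; adjusted p = 0.514 in limma). VTN, which encodes the adhesion protein vitronectin, was 6.03, 5.83 and 6.29 in control and 5.26, 5.51 and 5.32 in DFX tumors, a difference of -0.69 (SE 0.15; adjusted p = 0.513 in limma). EFEMP2, which encodes fibulin-4, was higher by 0.29 (SE 0.11; adjusted p = 0.579 in limma). ECM1, VTN and EFEMP2 were well above background in every tumor and did not overlap between the groups. Such a lack of overlap was found for 15.5% of all tested probes.

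**Figure D4:**
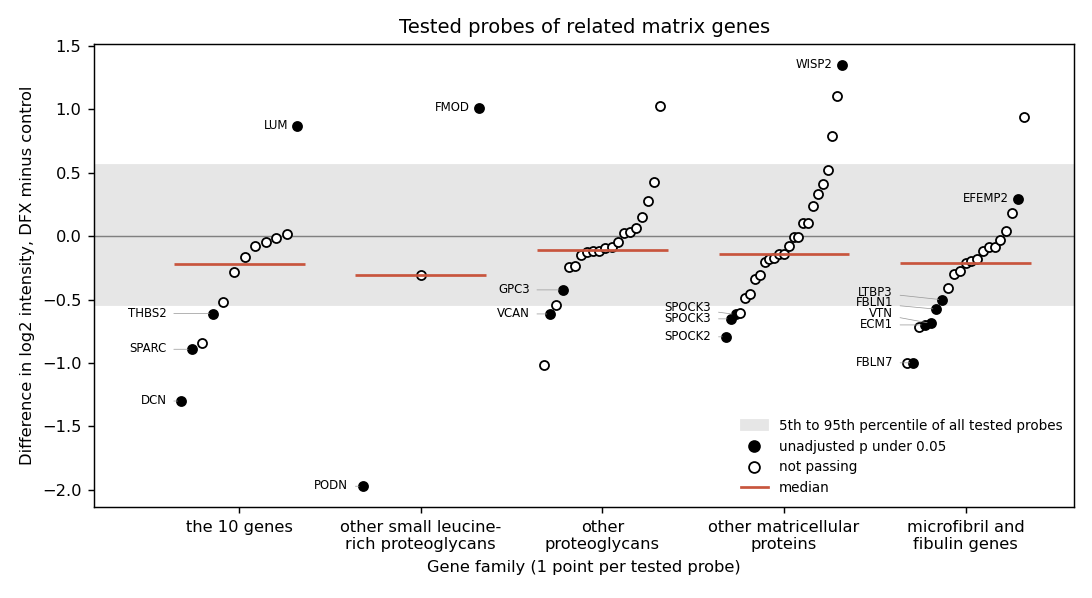
Difference in log2 intensity between DFX and control tumors (vertical axis) for each tested probe of the 10 genes and of 4 families of related genes (horizontal axis), with red bars for family medians and filled, named points for an unadjusted limma p under 0.05. The grey band is the 5th to 95th percentile of all tested probes, and the medians of all 5 sets lie between -0.30 and -0.10, inside it.

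Marker genes of the cell types that could supply these transcripts were read beside them. Of 10 fibroblast markers, 8 were tested and 1 was called (12.5%, beside 10.6% of all genes). Their 9 tested probes were lower in the DFX tumors for 7 and higher for 2. Among all tested probes 17309 were lower and 14498 higher. PDGFRA, a growth factor receptor of fibroblasts, was 7.30, 7.78 and 7.16 in control and 6.09, 5.91 and 6.88 in DFX tumors, a difference of -1.12 (SE 0.30; adjusted p = 0.514 in limma). The collagen genes COL1A1 and COL1A2 differed by -0.09 and -0.34 with overlapping groups (adjusted p = 0.944 and adjusted p = 0.775 in limma). The 2 higher probes were those of COL3A1, a further fibrillar collagen, at 1.04 (SE 0.47; adjusted p = 0.617 in limma), and of FAP, a protease of activated fibroblasts, at 0.46 (SE 0.58; adjusted p = 0.838 in limma), both with overlapping groups. Neither PDGFRB nor COL6A3 passed the detection filter. With the brightest tested probe of each gene, the summed linear level of the fibroblast markers was 10507 to 21579 in control and 12431 to 15089 in DFX tumors. These ranges overlapped, and the sum is dominated by COL1A1, COL1A2 and a further fibroblast marker, THY1. For the 10 genes themselves the sum was 3151 to 5504 in control and 2163 to 3080 in DFX tumors, which did not overlap. This sum is dominated by the DCN 3′ and THBS1 3′ probes, and the THBS1 3′ probe differed by only -0.07. The sum thus largely repeats the DCN 3′ difference and says little about the other genes.

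Endothelial markers had a summed level of 482 to 947 in control and 556 to 599 in DFX tumors, dominated by VWF at -0.58 (adjusted p = 0.667 in limma). Of 4 tested genes, 1 was called, higher, where 4.36% of all genes had a higher call. This was PECAM1, with 3 probes at 1.27, 1.64 and 2.22 (adjusted p = 0.504, 0.514 and 0.580 in limma). The last was well above background in 1 DFX tumor and no control tumor. The other 4 tested endothelial probes were lower, and none of these was called. Leukocyte markers had sums of 1898 to 2248 in control and 1991 to 2360 in DFX tumors, with none of 4 called. Markers of the tumor epithelium had sums of 627330 to 629457 in control and 641271 to 655173 in DFX tumors, which did not overlap. That sum is dominated by the keratin gene KRT19, whose difference was 0.02 (SE 0.10; adjusted p = 0.963 in limma). Its level was 18.54 in control replicate 1 and DFX replicate 3, and 18.44 in control replicates 2 and 3 and DFX replicate 1. Quantile normalization gives equal values to equal ranks on the arrays, so this difference says little about KRT19 RNA. Of 7 epithelial genes, 3 were called, all higher, where 4.36% of all genes had a higher call. Red blood cell genes had sums of 5192 to 6742 in control and 1600 to 1721 in DFX tumors. Of these 3 genes, 2 were called, both lower, where 6.3% of all genes had a lower call. The part of any of these in the differences of DCN, LUM, SPARC and THBS2 was not tested.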

How the data were processed

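The authors deposited 1 scanner file per tumor, with spot intensities on a linear scale (raw mean, background and background-subtracted processed signal), a p-value of each spot against background, and flags. They also deposited a table of normalized intensities. The file headers name Feature Extraction 10.7.1.1 and the submitters' processing notes name version 9.5.1.1. Groups and replicate numbers were taken from the labels.

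Following the study's methods, log2 values of the processed signal were taken for 58717 non-control spots and quantile normalization was applied. After removal of 1398 spot values with an outlier flag, repeat spots were averaged into probes, and probes whose median p-value against background was under 0.05 on all 6 arrays were tested (31807 of 50599). The difference between the groups was fitted in limma 3.58.1 (R 4.3.3; lmFit, then eBayes, prior degrees of freedom 2.04), and p-values were adjusted after Benjamini and Hochberg for all probes that were tested. The procedure was tested on simulated data. Intensity over background and the number of arrays limit the precision.

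The 10 genes and all gene lists, written from general knowledge, were chosen with earlier results of these data known. Named beside the 10 were, per direction, up to 5 related genes with the largest change among those without overlap and with an unadjusted p under 0.05. Marker genes named individually were chosen after their values were seen. Gene names are those of the array design, and 58 of the 64 related symbols are in the RefSeq table. Alternatives covered scaling, background correction, the dim-probe filter, outlier flags, the authors' normalized values, the Kruskal-Wallis H test that the methods name for in vivo experiments, the replicate number as a block, array quality weights, and each tumor left out. The deviations of same-numbered tumors correlated at 0.02 to 0.03, so the numbers were not taken to pair the tumors.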

Additional observations from a re-analysis of the deposited data

How the results depend on the processing

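Limma called 4 of the 12 probes at an unadjusted p under 0.05 as reported, 2 with normexp, 2 with the raw mean signal and 2 when only probes well above background on all arrays were kept, all shared with the reported calls, and 3 to 4 when 1 tumor was left out. Normexp, with 50 added to every signal, and the raw mean signal shrink the differences of dim probes. Lost calls and smaller differences there cannot show whether a result is stable. No alternative gave an adjusted call. The median difference ranged from -0.48, without DFX replicate 3, to -0.18 as single tumors were left out, and reached -0.06 over all alternatives, beside an SD between tumors of 0.23. The number of related genes called was 13, with 8 under the filter for probes well above background and 8 to 13 as tumors were left out. With the replicate block in limma LUM was not called, at a difference of 0.87, and no other call among the 12 probes changed, but as the numbers do not pair the tumors this is no sign of a weaker effect.

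Differences near 0 changed sign. FN1 was 0.0558 when scaled to the 75th percentile, 0.0125 under normexp, 0.0241 on raw mean signals, 0.141 with array quality weights and -0.34 to 0.39 with tumors left out. BGN was -0.00649 with median scaling, -0.0153 with normexp, -0.16 with array weights and -0.25 to 0.29 with tumors left out. THBS1 was 0.0363 on the 5′ probe when scaled to the 75th percentile, -0.25 to 0.13 on that probe and -0.22 to 0.10 on the 3′ probe with tumors left out, and the DCN 5′ probe was -0.57 to 0.18. The causes were not tested. With median scaling the tested probes of the whole array had a median of -0.10, and the share of all called probes that were lower was 58.8% as reported, 42.6% under the 75th percentile and 71.8% under the median. The DCN 3′ probe kept its direction and its call in all 16 alternatives. Signal over background limits SPARC, BGN, FBN1, TNC, FN1, POSTN and the DCN 5′ and THBS2 3′ probes.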
